A study of Mus musculus with 4 samples.

Results

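The subject is the set of m6A peaks that the authors annotated to 5′ UTRs in mouse macrophages of wild-type and Mettl3 conditional knockout genotype. Members are the rows whose annotation column reads UTR5. They number 3302 of 36507 peaks (9.04%) in the wild-type (WT) list, 3519 of 38697 (9.09%) in the conditional knockout (cKO) list and 847 of 10355 in the authors' deposited table of differential peaks. Bone-marrow-derived macrophages (BMDMs) were grown from C57BL/6 bone marrow in M-CSF for 7 days and then cultured with MC38 mouse colon carcinoma cells for 24 h. WT mice carried Mettl3 fl/fl alone. The cKO mice carried Mettl3 fl/fl and LysM-cre, a recombinase driven by the lysozyme M promoter in myeloid cells, so both groups had the floxed alleles and the cKO alone had the recombinase. Each genotype gave 1 immunoprecipitated (IP) library and 1 input library. There are no replicates, so no difference between genotypes has a check across cultures, and the intervals given are 95% exact (Clopper-Pearson for shares, order statistics for medians) and treat peaks as separate draws.

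N6-methyladenosine is written into messenger RNA by a nuclear complex whose catalytic subunit is Mettl3, most often in the context GGAC, and most of it lies near stop codons and in 3′ UTRs. At the other end of the message, an adenosine next to the cap can carry m6Am, which is written by Pcif1, not by Mettl3, and which antibodies against m6A also recognise. An IP signal near a transcript start can therefore hold either mark. Fragments were immunoprecipitated and sequenced without single-base resolution, so the 2 marks cannot be told apart here. In cultured cells, 5′ UTR m6A has been studied for its part in cap-independent translation under stress.

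The starts of a subset of the genes named below whose peak begins at the annotated gene start show which base would sit next to the cap if that start were used. The subset is the differential peaks of smallest adjusted p, up to 4 in each direction, and the ribosomal protein genes; others such as Fbln2, Alas1 and Maf are not shown. The first annotated base is in capitals, and each run is 25 bases of GENCODE M21 sequence on mm10, printed 5′ to 3′ on the gene's strand. The first 4 have a lower differential peak in the cKO, the next 3 a higher one, and Rpl3 and Rpl35 are ribosomal protein genes with a peak in both lists.
Btbd2 (chr10:80657047-80657071, minus strand): Gccttccctgcctctcctcatcctt
Nfkb2 (chr19:46304320-46304344, plus strand): Ccttcctcttccccttcccagctag
Atf5 (chr7:44816634-44816658, minus strand): Aggcaagcccgcgctgcgccgcccc
Dalrd3 (chr9:108569886-108569910, plus strand): Tgttccatttagtcttccggtcgcc
Spi1 (chr2:91082390-91082414, plus strand): Gtgctctgctctcttctcttttcct
Fabp4 (chr3:10208552-10208576, minus strand): Atagcaccctcctgtgctgcagcct
Tstd2 (chr4:46138670-46138694, minus strand): Ggggcaccggatgggctccgcagtg
Rpl3 (chr15:80091844-80091868, minus strand): Gcgggtcttgacggaacccaaaaat
Rpl35 (chr2:39005600-39005624, minus strand): Gaacagtggaagaagagaactccca

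The first GGAC in the exonic sequence of peaks with the smallest adjusted p is printed, with its place relative to the coding start. These peaks held from 1 GGAC (Rpl6, Ubb and Arpc1b) to 18 (Emilin2). Taking the first one favours places before the coding start, and which GGAC, if any, was methylated is not known. Each run is 20 bases, with GGAC in capitals. The first GGAC motifs of Slc15a3, Emilin2, Anpep and Plxna1, lower in the cKO, and of Ubb and Arg1, higher in the cKO, lie before the annotated coding start of the peak's transcript. Those of Ifi211 (lower) and of Rpl6 and Arpc1b (higher) lie at or after it, and the Arpc1b run crosses an exon junction.
Slc15a3 (chr19:10842554-10842573, plus strand): gccagaggGGACtaaggaag
Ifi211 (chr1:173907814-173907833, minus strand): tgctgagaGGACttgaatgt
Emilin2 (chr17:71274855-71274874, minus strand): gaagagctGGACgggaaggt
Anpep (chr7:79860924-79860943, minus strand): acgtcccaGGACaagaatga
Plxna1 (chr6:89362416-89362435, minus strand): cagcggcgGGACgcgcccgg
Rpl6 (chr5:121205805-121205824, plus strand): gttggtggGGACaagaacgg
Ubb (chr11:62551784-62551803, plus strand): agcttaacGGACgcttaacc
Arpc1b (chr5:145121721-145122532, plus strand): tggaacaaGGACcgtacaca
Arg1 (chr10:24927408-24927427, minus strand): gaggagctGGACagcccgag

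The label of the cells was checked against marker genes. Of 20 macrophage identity genes, 19 had a peak of any kind in each genotype, and the 16 with a deposited input value summed to 8460 FPKM in the WT and 7142 FPKM in the cKO input. Of 14 epithelial and colon carcinoma markers, 5 had a WT peak and 6 a cKO peak, with 2 input values that summed to 7.29 and 11.0 FPKM. Mesenchymal markers were present too: 12 of 14 had a WT peak and all 14 a cKO peak, and the 11 with an input value summed to 355 FPKM in the WT and 538 FPKM in the cKO. Neutrophil markers summed to 34.6 and 48.5 FPKM over 2 held genes, dendritic cell markers to 1.53 and 1.29 FPKM in 1 gene and lymphoid markers to 1.10 and 0.642 FPKM over 2 genes. None of the held marker genes was at 0 in both inputs. Input values were held only for genes with a differential peak, so that outcome was largely set by the selection. The sums cover different numbers of genes in each list.

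5′ UTR peaks lay in 2902 genes in the WT and 3110 in the cKO, which is 21.0% of the 13832 WT and 22.2% of the 13993 cKO genes with any peak. 1984 genes had one in both lists, 68.4% of the WT and 63.8% of the cKO genes. Most genes held 1 such peak (2567 in the WT, 2759 in the cKO). 335 and 351 genes held 2 or more, up to 6 in the WT and 5 in the cKO. These genes were rarely marked in the 5′ UTR alone. A 3′ UTR peak was also listed in 93.8% of them in the WT and 94.3% in the cKO, against 81.8% and 81.7% of all genes with a peak, and 125 and 121 genes had no other peak.

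Enrichment of 5′ UTR peaks was close to that of 3′ UTR peaks and above that of exonic peaks. The log2 IP over input values, which are the authors' own per peak, had a median of 1.32 (1.29 to 1.35) in the WT and 1.28 (1.25 to 1.31) in the cKO. The quartiles were 0.95 and 2.00 in the WT and 0.95 and 1.87 in the cKO. 3′ UTR peaks had medians of 1.30 and 1.42 and exonic peaks of 0.90 and 0.92. Enrichment of at least 4-fold was listed for 25.0% of WT and 21.7% of cKO 5′ UTR peaks, against 22.8% and 22.2% of 3′ UTR peaks and 11.7% and 9.99% of exonic peaks. So the 5′ UTR median was lower in the cKO list while the 3′ UTR median was higher there. The lists differ in which peaks they hold.

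**Figure D1:**
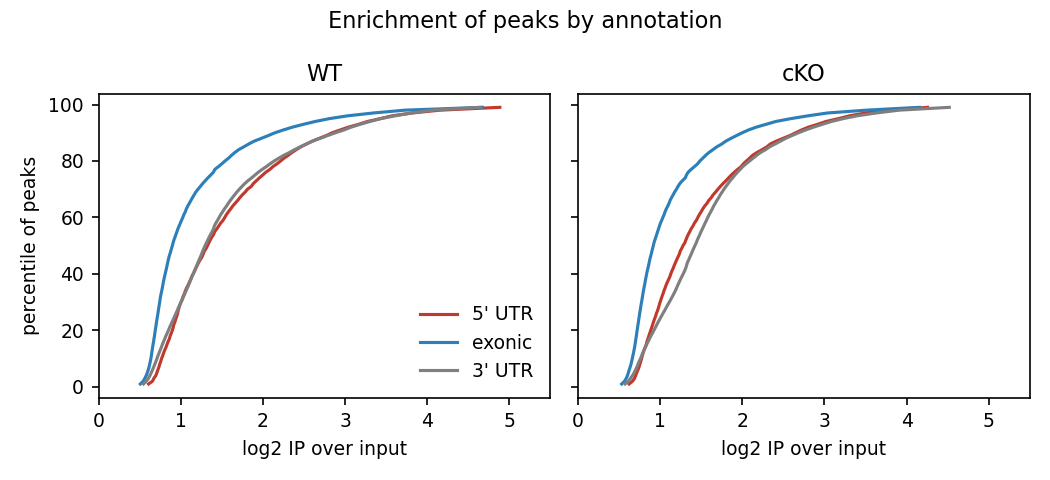
Cumulative distribution of log2 IP over input (x axis; y axis, percentile of peaks) for 5′ UTR, exonic and 3′ UTR peaks in the WT and cKO lists. The 5′ UTR curve runs with the 3′ UTR curve in the WT (medians 1.32 and 1.30) and to its left around the median in the cKO (1.28 and 1.42).

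The peaks were broad in relation to a 5′ UTR. Between outer ends they spanned a median of 1437.5 bp in the WT and 1439 bp in the cKO, introns included. 33.9% and 33.3% of them spanned over 5000 bp, and the widest reached 322103 bp. Laid on the merged exons of the gene, 3199 WT and 3419 cKO peaks had both ends inside exons, with a median exonic length of 411 and 400 bases. Exonic peaks had 350 bases and 3′ UTR peaks 400 bases in both lists.

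Peaks clustered at annotated transcript starts. Within 50 exonic bases of an annotated transcript start of the same gene lay the 5′ end of 56.8% (55.0 to 58.5) of placed WT and 58.1% (56.5 to 59.8) of placed cKO peaks. For exonic peaks it was 8.37% and 8.52%, and for 3′ UTR peaks 3.46% and 3.06%. Exactly at the gene start, the outermost annotated base, began 581 WT peaks (18.2%) and 618 cKO peaks (18.1%). The median signed offset from the nearest start, negative for peaks that begin before it, was 7 bases in the WT and 8 in the cKO. Offsets of opposite sign offset each other, so this is not a typical distance. From the gene start, which no placed peak precedes, the medians were 150 and 145 bases. A further 16.6% and 15.8% began over 200 bases from any annotated start. Because the annotation class itself depends on transcript models, nearness to a start is in part what the UTR5 label selects. Placed peaks have both ends inside the gene's exons, so none can begin before the gene start. Most placed lengths were also whole multiples of a fixed step, so peak ends may not fall freely at any base. How far the counts exactly at the gene start reflect these limits was not tested.

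**Figure D2:**
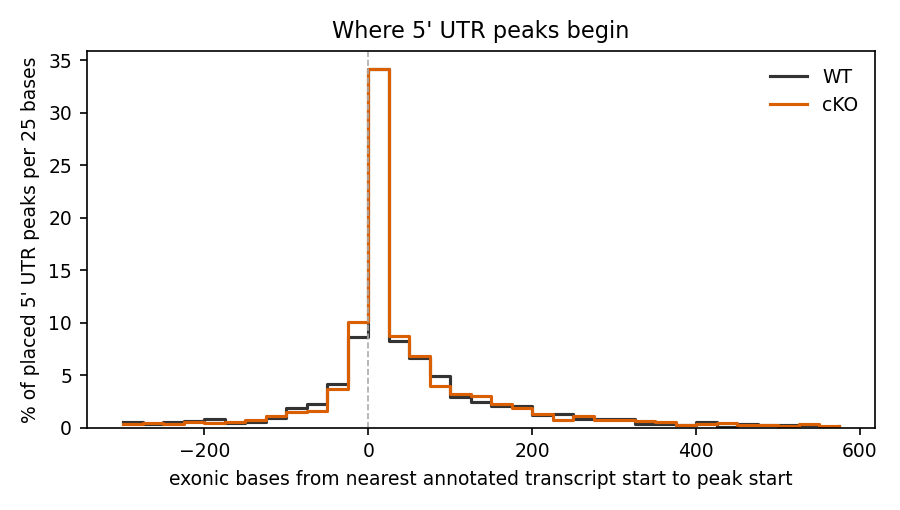
Percentage of placed 5′ UTR peaks (y axis) by the exonic distance from the nearest annotated transcript start of the gene to the 5′ end of the peak (x axis, in 25-base steps; negative values lie before that start), for the WT and cKO lists. Both lists peak in the step that begins at the start, and 56.8% of WT and 58.1% of cKO peaks lie within 50 bases of it.

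Most 5′ UTR peaks reached into coding sequence. The annotated coding start of the peak's transcript lay between the outer ends of 1884 WT peaks (57.1%; 55.3 to 58.8) and 1990 cKO peaks (56.6%). 1408 WT peaks (42.6%) and 1518 cKO peaks (43.1%) ended before it. Only the transcript deposited with each peak was read, so coding starts of other transcripts of the gene are not considered. Some peaks counted as before it were long, such as Phf23 (1375 exonic bases, WT) and Ppp1r9b (2100, cKO). Peaks that held the coding start were longer (median exonic length 525 against 312 bases in the WT, 500 against 321.5 in the cKO). Their median log2 IP over input was 1.41 (1.37 to 1.48) beside 1.21 (1.17 to 1.26) for the others in the WT, and 1.34 beside 1.21 in the cKO. Enrichment was also higher for peaks that began at the gene start, 1.50 (1.41 to 1.60) in the WT and 1.45 (1.39 to 1.53) in the cKO. Those that began elsewhere within 50 bases of a start had 1.28 and 1.22. Those over 50 and up to 200 bases away had 1.26 and 1.22, and those over 200 bases away 1.29 and 1.31.

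The base at the annotated gene start was read for every gene, since m6Am requires an adenosine there. This reading takes the gene start as deposited and all 585 WT and 624 cKO peaks that begin there, whether placed on exons or not. Genes with a peak at the gene start began with A in 160 of 585 cases in the WT (27.4%; 23.8 to 31.2) and in 160 of 624 in the cKO (25.6%; 22.3 to 29.3). Genes with peaks but none in the 5′ UTR began with A in 29.7% and 29.9%. G was the start base in 48.7% and 51.4% of the genes with a peak at the start, against 43.7% and 43.2% of the genes with no 5′ UTR peak. Seen from the gene, 19.6% (18.4 to 20.9) of WT genes that begin with A had a 5′ UTR peak, 22.1% (20.4 to 23.9) of those with C, 21.8% (20.8 to 22.8) of those with G and 19.9% (17.9 to 22.0) of those with T. In the cKO the shares were 20.8%, 22.0%, 23.7% and 20.7%. No excess of A was seen at annotated starts with a peak in either genotype.

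Enrichment did not order by start base either. The median log2 IP over input of peaks at the gene start was 1.49 (1.36 to 1.68) for A, 1.49 for C, 1.47 for G and 1.70 (1.26 to 2.20) for T in the WT. In the cKO it was 1.39 (1.29 to 1.56), 1.54, 1.45 and 1.59. RefSeq starts (GRCm38.p6) gave the same picture for A: 29.0% of the 534 WT and 29.0% of the 618 cKO starts within 25 bases of a 5′ UTR peak's beginning were A, against 29.2% of all RefSeq starts of genes with a peak in both. A preceded by C was found at 19.9% and 19.3% of these starts, against 19.1% and 19.2%. These shares depend on annotated starts being the ones the cells use. As a gauge of that, genes of TOP mRNAs, which encode ribosomal proteins and translation factors and are known to start with C, were read the same way: 29 of 93 began with C at the GENCODE gene start (31.2%; 22.0 to 41.6), 36 with G and 19 with A. At the first listed RefSeq start it was 25 of 67 (37.3%). The start sequences of Rpl3 and Rpl35 above, which begin with G, are among these. C was the GENCODE start base of 15.9% of all WT genes with a peak. Most TOP genes thus showed a base other than C at the annotated start. The shares of A were read at the same kind of starts and may miss the bases in use, so the presence of m6Am was not tested.

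GGAC on the transcript strand occurred in the exonic sequence of 82.0% of WT (80.7 to 83.3) and 82.5% of cKO 5′ UTR peaks, at 5.46 and 5.47 per kb. The window of the same length just downstream on the same merged exons held it in 77.5% of 3100 WT peaks with such a window, against 81.5% of the peaks themselves. Per kb, the downstream windows had 4.05 and the peaks 5.51. The peaks had a higher median GC content than these windows (58.2% and 52.0%), and how much of the difference in density goes with it was not tested. Exonic peaks had 4.49 and 3′ UTR peaks 4.01 GGAC per kb in the WT. GGACT, which is contained in the count of GGAC, occurred in 46.3% of WT and 45.2% of cKO 5′ UTR peaks.

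Between genotypes, 71.9% of WT 5′ UTR peaks (70.3 to 73.4) overlapped a cKO peak of any class by at least 1 bp on the same strand, and 69.6% of cKO peaks (68.1 to 71.1) a WT peak. 63.7% and 59.7% overlapped a peak that was also annotated as 5′ UTR. For exonic peaks the overlap was 59.0% and 59.7%, and for 3′ UTR peaks 82.0% and 79.8%. Peaks with a partner were stronger: their median log2 IP over input was 1.46 in the WT and 1.39 in the cKO, against 1.08 and 1.05 without one. Peaks with a partner also began at the gene start more often (20.2% and 20.5%, against 13.1% and 12.6%).

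At 1581 5′ UTR peaks that matched one to one, enrichment was close in the 2 genotypes. The median log2 IP over input was 1.46 in the WT and 1.42 in the cKO, and the median difference, cKO minus WT, was -0.029 (-0.052 to -0.014). In the cKO, 853 of them had the lower value (54.0%; 51.5 to 56.4), where 45.2% of all 19387 matched peaks did. The log2 difference reached 1 at 93 of them, 54 lower and 39 higher, which is 5.88%, near the 5.58% of all matched peaks. Exonic peaks had a median difference of 0.0031 with 49.6% lower, and 3′ UTR peaks 0.071 (0.063 to 0.080) with 42.2% lower. After subtraction of the median over all matched peaks (0.042), 60.3% of the 5′ UTR peaks were lower.

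The authors' deposited table of differential peaks, which lists peaks with the authors' p below 0.05, holds 533 lower and 314 higher 5′ UTR peaks in 810 genes. Lower peaks are thus 62.9% (59.6 to 66.2) of the 5′ UTR peaks in the authors' deposited table, beside 51.1% lower and 48.9% higher over all 10355 listed peaks. The lower share is 58.3% for exonic and 48.5% for 3′ UTR peaks in the authors' deposited table. With the authors' adjusted p below 0.05, the authors' deposited table keeps 403 of them (47.6%; 53.3% of all listed peaks). These are 287 lower (71.2%) and 116 higher 5′ UTR peaks, with 54.3% lower among all peaks at that threshold of the authors' deposited table. Restricting to differences of 1 or more on the log2 scale, the authors' deposited table has 193 lower and 187 higher 5′ UTR peaks (50.8% lower). Over all 3683 listed peaks at that difference, 44.5% were lower in the authors' deposited table. With 1 library of each kind, these p-values compare the libraries, not the genotypes across cultures. The lower peaks were therefore more numerous but mostly of small difference. Their median log2 IP over input in the authors' deposited table went from 2.09 in the WT to 1.18 in the cKO. The higher peaks went from 0.47 to 1.74 in the authors' deposited table, and 74 of these 314 had a WT value below 0, where the IP was under the input. In the lower direction, 70 of 533 had a cKO value below 0 in the authors' deposited table.

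**Figure D3:**
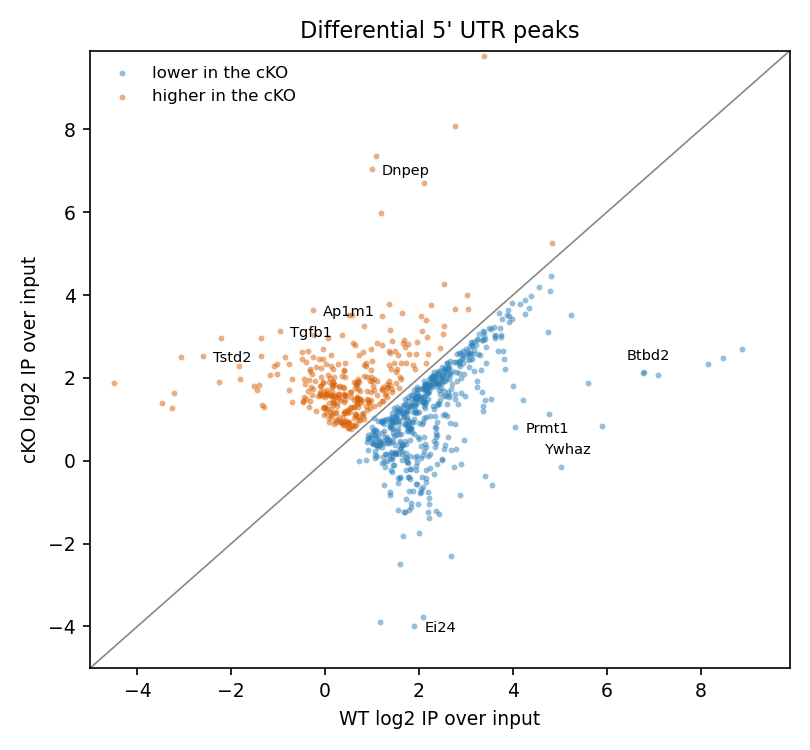
Log2 IP over input in the WT (x axis) and cKO (y axis) of the 847 5′ UTR peaks in the authors' deposited table of differential peaks, with the line of equal values; blue points are lower and orange points higher in the cKO. Many of the 533 lower peaks sit in a band just under the line at WT values above 2, while most of the 314 higher peaks start from WT values near or under 1.

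Direction depended on how strong a peak was, and in a way that differed from 3′ UTR peaks. All differential peaks were split into quintiles of the mean of their WT and cKO log2 values. From the weakest to the strongest quintile, the share of 5′ UTR peaks lower in the cKO in the authors' deposited table was 48.4%, 46.2%, 63.8%, 74.7% and 81.9%. Exonic peaks followed a like course (47.1%, 54.9%, 60.5%, 82.5% and 82.6% in the authors' deposited table). 3′ UTR peaks dipped in the middle, with 46.4%, 29.3%, 21.8%, 52.9% and 89.0% lower in the authors' deposited table. In the middle quintile the intervals were 55.2 to 71.8 for 5′ UTR and 19.8 to 23.9 for 3′ UTR peaks, and in the strongest they were 75.3 to 87.3 and 87.3 to 90.5. The matched peaks of the 2 lists, which pass no test of difference, also set 3′ UTR peaks apart in the middle quintile: 53.7% of 5′ UTR, 55.9% of exonic and 28.3% of 3′ UTR peaks were lower.

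**Figure D4:**
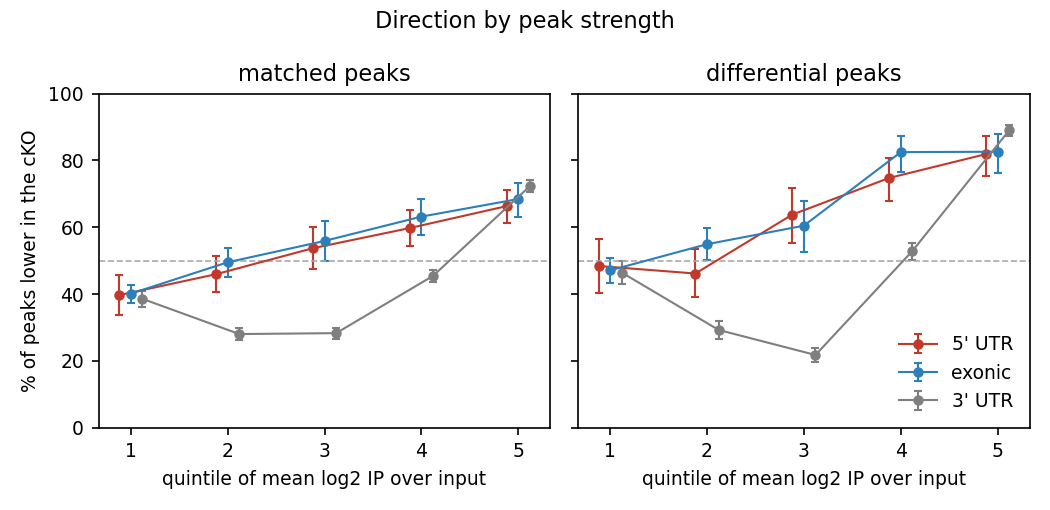
Percentage of peaks lower in the cKO (y axis, with 95% Clopper-Pearson intervals) in quintiles of mean log2 IP over input (x axis, weakest to strongest), for matched peaks of the 2 lists and for the authors' deposited table of differential peaks. 5′ UTR and exonic peaks climb from quintile to quintile to 66.3% and 68.4% of matched peaks, apart from the first 2 quintiles of differential 5′ UTR peaks, while 3′ UTR peaks fall to 28.0% in the second quintile of matched peaks and reach 72.3% in the last.

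Direction also differed between peaks that held the coding start and peaks that ended before it. In the authors' deposited table, 345 of 508 5′ UTR peaks that held the coding start were lower in the cKO (67.9%; 63.7 to 72.0), against 186 of 334 that ended before it (55.7%; 50.2 to 61.1). The former were also longer (707 against 332 exonic bases) and stronger (median of the mean log2 of 1.54 against 1.04). In the lower 3 quintiles of strength the shares in the authors' deposited table were 52.8% of 246 and 51.0% of 243, and in the upper 2 they were 82.1% (76.9 to 86.5) of 262 and 68.1% (57.5 to 77.5) of 91. Of the placed peaks that began at the gene start, 101 of 145 were lower in the authors' deposited table (69.7%; 61.5 to 77.0). Of those that began elsewhere within 50 bases of a start, 173 of 304 were lower (56.9%; 51.1 to 62.5). From over 50 to 200 bases away it was 144 of 229 (62.9%; 56.3 to 69.2), and over 200 bases away 90 of 135 (66.7%; 58.0 to 74.5). These shares in the authors' deposited table did not order by distance.

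By start base, over all 146 such peaks by the deposited gene start, 27 of 40 differential peaks at a gene start with A were lower in the cKO in the authors' deposited table (67.5%; 50.9 to 81.4). With G it was 51 of 71 (71.8%; 59.9 to 81.9), with C 17 of 25 and with T 7 of 10 in the authors' deposited table. The intervals overlap widely. Lower 5′ UTR peaks of the authors' deposited table held 5.70 GGAC per kb (89.0% of 508 peaks with at least 1; median length 675 bases) and higher ones 5.14 per kb (76.7% of 305; 375 bases). For 3′ UTR peaks in the authors' deposited table the densities were 4.50 and 3.26 per kb. The higher 5′ UTR peaks were thus nearer in GGAC density to the lower ones than the higher 3′ UTR peaks were, with no test of that difference.

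The 5 lower peaks with the smallest adjusted p lay in Slc15a3, Ifi211, Emilin2, Anpep and Plxna1. Slc15a3, a lysosomal peptide transporter, had a peak of 1225 exonic bases that went from 3.38 in the WT to 3.11 in the cKO (authors' deposited table, adjusted p = 2.05e-36), a small difference (-0.27) in a strongly enriched peak. Ifi211, an interferon-inducible gene, went from 2.24 to 1.08 in the authors' deposited table (difference -1.15, adjusted p = 1.81e-25). Emilin2, an extracellular matrix glycoprotein, went from 2.30 to 1.91, Anpep, the aminopeptidase CD13, from 1.73 to 1.36 and Plxna1, a semaphorin receptor, from 2.55 to 1.93 in the authors' deposited table. Input FPKM, a length-scaled level, was 143 in the WT and 111 in the cKO for Slc15a3 and 155 and 136 for Anpep.

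The higher peaks with the smallest adjusted p had WT values from 0.61 to 1.05 and cKO values from 0.84 to 1.70 in the authors' deposited table. Rpl6, a large-subunit ribosomal protein gene, went from 0.73 to 1.39 in the authors' deposited table (difference 0.65, adjusted p = 5.00e-25). Ubb, a polyubiquitin gene, went from 0.65 to 0.84 and Arg1, the arginase of alternatively activated macrophages, from 0.66 to 0.89 in the authors' deposited table. Arpc1b, a subunit of the actin-nucleating Arp2/3 complex, went from 0.61 to 1.03 and Ticam2, a Toll-like receptor adaptor, from 1.05 to 1.70 in the authors' deposited table. The Arpc1b difference of 0.43 has the opposite sign (-0.057) when the overlapping peaks of the 2 lists are compared. Ribosomal protein and ubiquitin genes have near-identical copies, so reads assigned to Rpl6 and Ubb are uncertain.

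Most of the largest named differences came from peaks with a value below 0 in 1 genotype; Dnpep, Btbd2 and Prmt1 were above 0 in both. Dnpep, an aspartyl aminopeptidase, went from 0.99 to 7.05 in the authors' deposited table (adjusted p = 0.0444), while the lists hold 1 Dnpep 5′ UTR peak in the WT and none in the cKO. Tstd2 went from -2.60 to 2.53 in the authors' deposited table (adjusted p = 0.110) and Oard1, which removes ADP-ribose from proteins, from -1.84 to 2.28 (adjusted p = 0.0668). Ap1m1, an adaptor of clathrin coats, went from -0.27 to 3.64 over 100 exonic bases, Numa1, a spindle protein, from -1.36 to 2.53, Fabp4, a fatty-acid-binding protein, from -1.09 to 2.28 and Septin9 from -1.03 to 2.09 in the authors' deposited table, the last with an adjusted p of 0.0889. In the lower direction, Ei24 went from 1.90 to -3.99 in the authors' deposited table (difference -5.89, adjusted p = 0.0488), and Ywhaz, a 14-3-3 protein, from 5.02 to -0.14 (adjusted p = 0.0207). Btbd2 went from 6.79 to 2.14, Prmt1, an arginine methyltransferase, from 4.04 to 0.82 and Pstpip2 from 1.80 to -1.19 in the authors' deposited table. Slc28a2, a nucleoside transporter, went from 2.20 to -0.75, Dalrd3 from 1.67 to -1.23 and Pcmt1, a protein repair methyltransferase, from 1.82 to -1.03 in the authors' deposited table. Prmt1 and Dalrd3 did not pass an adjusted p of 0.05 (0.0786 and 0.0888). WT and cKO input FPKM were 10.2 and 10.0 for Ei24, 12.4 and 11.7 for Prmt1, 18.7 and 19.3 for Pstpip2 and 61.9 and 46.5 for Ywhaz.

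Tgfb1, the transforming growth factor gene, shows both directions within 1 gene. A peak that begins 175 exonic bases into the gene went from 1.63 to 1.27 in the authors' deposited table (difference -0.37, adjusted p = 6.43e-11). A second peak, 125 bases long and 1475 bases into the gene, went from -0.97 to 3.14 in the authors' deposited table (difference 4.11, adjusted p = 0.00223). The peak lists hold 1 Tgfb1 5′ UTR peak in the WT (1.62) and 3 in the cKO (1.41, 0.87 and 2.83). Input FPKM of Tgfb1 was 44.8 and 40.8.

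Among 5′ UTR peaks of highest enrichment in genes with a deposited input value, both short and long peaks occurred. Fbln2, an extracellular matrix gene of the mesenchymal list, had 8.81 in the WT over 375 bases from its gene start, and no 5′ UTR peak in the cKO list although its input FPKM was 20.5 and 24.1. Pcbp2, an RNA-binding protein, had 5.57 in the WT over 125 bases and Pgs1 had 4.92 over 175 bases. In the cKO, Alas1, the first enzyme of haem synthesis, had 8.01 over 274 bases from its gene start and no WT 5′ UTR peak, and Abr had 5.23 over 200 bases. The authors' adjusted p of these peaks was 1.96e-05 for Fbln2, 2.01e-04 for Pcbp2, 8.98e-04 for Pgs1, 1.00e-04 for Alas1 and 3.90e-04 for Abr. Read counts at these short peaks are not known here. Spen, a transcriptional repressor, had 5.18 in the WT and 5.19 in the cKO over 1650 and 1625 bases with 11 GGAC each. Cic, a repressor, had 4.26 in the cKO over 3150 bases with 22 GGAC, Ppp1r9b 4.23 over 2100 bases with 14 and Rbbp6 4.24 over 1725 bases with 9. Zbtb7b, a transcription factor, had 4.88 in the cKO with 13 GGAC and St3gal2, a sialyltransferase, 4.30 with 2. In the WT, Trim41 had 4.83 over 1950 bases and Phf23 4.78 over 1375 bases, each without a cKO 5′ UTR peak in the list. Absence here and below refers to peaks annotated as 5′ UTR, so a peak of another class at the same place is not counted. Such peaks occur: 2374 WT 5′ UTR peaks overlapped a cKO peak of any class, and 2105 overlapped a cKO 5′ UTR peak. Whether the signal itself was lost at these genes was not tested.

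TOP mRNAs rarely carried a 5′ UTR peak. Of the 93 such genes with any peak, 10 had one in the WT (10.8%) and 7 in the cKO (7.53%), below the 21.0% and 22.2% of all genes, although their input was high (18816 FPKM summed over 84 held genes in the WT and 23475 in the cKO). Rpl3 had 3.16 in the WT and 2.22 in the cKO, and Rpl18 1.55 and 2.02 at its strongest peak. Rpl35 went from 2.76 to 0.88 in the authors' deposited table (adjusted p = 0.0895), and Rpl6, above, was higher. The list had 2 lower and 2 higher differential peaks in the authors' deposited table.

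Genes of the cap and of the m6A pathway are few, and their counts are read against the 21.0% of WT and 22.2% of cKO genes with any peak that had a 5′ UTR peak. Pcif1, the cap-adjacent adenosine methyltransferase, had 0.96 in the WT and 0.86 in the cKO, and Rnmt, which methylates the cap guanosine, had 1.19 and 0.86 at 2 peaks in the cKO. These were the only 2 of 6 cap genes with one (16.7% in the WT, 33.3% in the cKO). Of 9 writer genes 3 had a WT peak and 1 a cKO peak (33.3% and 11.1%). Mettl3 itself had 1 in the WT list (1.33, adjusted p = 0.00370) and none in the cKO list. No input value of Mettl3 was used here. Rbm15, an adaptor of the writer complex, went from 3.36 to 2.93 in the authors' deposited table (difference -0.44, adjusted p = 0.00554), and Zc3h13 had 0.86 in the WT. Among eraser and reader genes, 3 of 11 had a WT and 3 of 12 a cKO 5′ UTR peak (27.3% and 25.0%). Alkbh5, a demethylase, went from 1.06 to 0.48 in the authors' deposited table (adjusted p = 1.47e-04). Igf2bp2, a reader, had 0.84 in the WT and 0.97 in the cKO. Ythdf3 had a WT peak (0.79), and Hnrnpc (0.73) and Ythdc2 (1.98) had cKO peaks.

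Stress genes, in which 5′ UTR control of translation is best known, were mixed. Of 18 integrated stress response genes 5 had a WT and 6 a cKO 5′ UTR peak (27.8% and 33.3%, beside 21.0% and 22.2% of all genes with a peak). Atf5, a transcription factor translated through upstream reading frames, went from 1.71 to 1.49 in the authors' deposited table (adjusted p = 0.0854). Eif2ak4, a kinase that senses amino acid shortage, had 2 higher peaks in the authors' deposited table, from -0.028 to 1.29 and from 1.10 to 1.94 (adjusted p = 0.111 and 0.0974). Eif2s1, the translation initiation factor this kinase phosphorylates, had 1.33 in the WT and 2.70 in the cKO, and Ppp1r15b had 1.80 in the WT only. Here and below, WT only and cKO only refer to peaks annotated as 5′ UTR, and peaks of other classes are not counted. Of 17 heat shock and chaperone genes, 7 had a WT and 3 a cKO peak (41.2% and 17.6%, beside the same 21.0% and 22.2%). Hsp90b1 had 1.58 and 1.81, Dnaja1 2.20 and Hspa8 1.86 in the WT only. Hspb1 went from -0.036 to 1.68 in the authors' deposited table (adjusted p = 0.0781), the only differential 5′ UTR peak of that list. None of these differential peaks had an adjusted p below 0.05.

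Immune signalling and identity genes had differential peaks in each direction, and their counts are given beside the 21.0% and 22.2% of all genes with a peak. Of 24 JAK-STAT genes with a peak, 4 had a WT and 5 a cKO 5′ UTR peak (16.7% and 20.8%, near that background). Pias1, an inhibitor of STAT proteins, went from 2.57 to 1.97 in the authors' deposited table (difference -0.60, adjusted p = 0.0260), from a peak 5 bases after its gene start. Socs2, a feedback inhibitor, had 0.64 in the WT and 0.99 at the overlapping cKO peak. Its other cKO peaks, of 1.55 and 1.74, lay elsewhere in the gene. Socs1 had 1.04 in the WT only and Stat5a 1.17 in the cKO only. Of 24 Toll-like receptor and NF-kB genes, 5 had a WT and 8 a cKO 5′ UTR peak (20.8% and 33.3%). Nfkb2, an NF-kB subunit, went from 1.77 to 0.82 in the authors' deposited table (adjusted p = 0.0714), Tlr1 had 2.24 and 1.92, Irak3 0.998 and 0.96, and Tlr3 1.16 in the cKO only. Of the cytokine genes with a peak, 2 of 23 had a WT and 1 of 21 a cKO 5′ UTR peak (8.70% and 4.76%), Cxcl9 (1.09, WT) and Tgfb1. Of 19 macrophage identity genes with a peak, 4 had a WT and 2 a cKO 5′ UTR peak (21.1% and 10.5%). Spi1, the transcription factor that directs myeloid fate, went from 1.49 to 2.65 in the authors' deposited table (difference 1.16, adjusted p = 0.0321), with input FPKM of 24.2 and 21.0. Maf, a macrophage transcription factor, had 3.06 in the WT and 2.98 in the cKO, and Marco, a scavenger receptor, had 1.33 in the WT list only.

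Genes of other cell types contributed a few peaks. Besides Fbln2, the mesenchymal list had Pdgfra, which went from 4.00 to 1.80 in the authors' deposited table (adjusted p = 0.152), and Pdgfrb (1.59, cKO). The summed input of that list, given above, was higher in the cKO. How far its peaks come from other cells in the culture was not tested. Csf3r, a neutrophil marker, had 0.75 in the WT, the dendritic cell markers Batf3 and Ccr7 had 1.42 and 0.72 in the cKO, and no epithelial or lymphoid marker had a 5′ UTR peak.

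A change at the 5′ UTR did not fix the direction at the 3′ UTR of the same gene. Of 810 genes with a differential 5′ UTR peak in the authors' deposited table, 393 also had a differential 3′ UTR peak. Both were lower in 143 and both higher in 64, while 71 had a lower 5′ and higher 3′ UTR peak and 58 the reverse. The remaining 57 had peaks of both directions within 1 class. Input values were deposited only beside differential peaks, so levels are known for genes that have one of any class. Among these, 2326 genes with a 5′ UTR peak in either list had a median input difference (cKO minus WT, each as log2 of FPKM + 1) of -0.027 (-0.037 to -0.019). The median was -0.020 over all 6079 held genes. It was -0.016 for 446 genes with a lower and -0.052 (-0.082 to -0.024) for 239 genes with a higher differential 5′ UTR peak. This scale understates changes of low genes.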

How the data were processed

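Poly(A) RNA from 50 µg of total RNA was fragmented, immunoprecipitated with an m6A antibody and sequenced as stranded libraries, per the labels' protocols. The submitters' processing notes name mm10, fastp, HISAT2, HOMER, ChIPseeker, StringTie and edgeR without roles. For the peak caller, the scaling of IP to input and the depth, the sources used here give nothing, so no counting interval was possible. Peak positions, annotations, log2 IP over input, p-values and adjusted p-values are as deposited by the authors, on mm10, as are the FPKM values of the 2 inputs. FPKM were held only for genes with a differential peak.

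Starts were raised by 1 to count from 1. Peaks were placed on the merged exons of their gene in GENCODE M21, with sequence rebuilt from its transcripts. At 92.9% of WT and 92.7% of cKO 5′ UTR peaks the placed length was a whole multiple of 25 bases. RefSeq starts came from a table of promoters on GRCm38.p6. 2671 of 3302 WT and 2869 of 3519 cKO peaks matched it. Overlaps used bedtools 2.31.1 on 1 strand, and matched peaks overlap one to one. Intervals used scipy 1.17.1. In the authors' deposited table, the WT and cKO columns were checked against the lists at 117 and 91 identical positions (median difference -0.038 and -0.056). The placement and the intervals were tested on simulated data.

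Members and the 15 gene lists were chosen with earlier results of these data known. Named genes are the 8 highest 5′ UTR peaks per list, the 8 largest rises and falls and the 5 smallest adjusted p in each direction, at a mean input FPKM of at least 5, up to 4 members per list by log2, and all cap, writer, eraser and reader genes with a 5′ UTR peak. Mitochondrial genes and provisional symbols (Gm plus a number, or ending in Rik) were not named. Start sequences follow the same rule, without chromosome 18. The GGAC runs were chosen after the values were seen.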

Additional observations from a re-analysis of the deposited data

How the results depend on the processing

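Of 56 alternatives to 19 main results, 24 stayed within the interval or within 1.5 times the count and 32 moved; none changed direction. With a log2 of at least 1, 5′ UTRs took 9.96% of WT and 9.47% of cKO peaks. The share beginning within 50 bases of a start became 34.2% and 34.8% from the gene start alone, 19.1% and 18.7% exactly at a start, 71.5% and 71.5% within 100 bases and, by genomic distance, chosen after seeing the data, 52.0% and 54.0%. The median log2 at peaks that span at most 5000 bp was 1.24 and 1.22. Overlap fell to 49.9% and 47.4% at 50% of both peaks and to 63.7% and 59.7% with 5′ UTR peaks alone. GGACT was in 46.3% and 45.2% of peaks, and GGAC in 91.3% and 91.5% of those with a log2 of at least 2. After centring, the median log2 difference at matched peaks was -0.070 and 60.3% of matched peaks were lower. Of differential 5′ UTR peaks in the authors' deposited table, 71.2% (287 peaks) were lower with an adjusted p below 0.05, 50.8% (193) at a difference of at least 1 and 57.7% (303) at spans of at most 5000 bp. Over all listed peaks of the authors' deposited table the lower shares were 54.3% at that adjusted p and 44.5% at that difference. At a mean input FPKM of at least 5, 254 were lower in the authors' deposited table. Chosen after seeing the data, peaks at the gene start gave 69.9% (102 lower), and genes with no other differential peak had 199 lower peaks in the authors' deposited table. Of 10 named differences compared with the 2 peak lists, 9 kept their sign and Arpc1b, at -0.057, did not. No paired analysis was possible because each genotype has 1 IP and 1 input library, and no library could be left out. The cause of these changes was not tested. Unknown depth limits what weak peaks and values below 0 can show.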
